A study of Rattus norvegicus with 6 samples.

Results

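The 9 genes described here encode the receptor, substrates, kinase subunits, transcription factors and translational repressors that carry the insulin signal in the liver cell: Insr, Irs1, Irs2, Pik3r1, Akt2, Foxo1, Foxo3, Eif4ebp1 and Eif4ebp3. They were picked by symbol from a table of 20104 genes, and all 9 were present, had reads in all 6 libraries and passed the filter on low counts, which kept 13872 genes. RNA sequencing was done on rat liver taken on day 14 after a liver injury that had been covered with 1 of 2 haemostatic dressings, 3 libraries per dressing. Quik-clot, a commercial dressing, was the control, and AKOC, a name the labels do not spell out, is the dressing under study in a series whose title names kaolin scales fixed to cotton. Strain, sex, age, hour of collection and feeding before collection are not in the labels, all samples come from injured liver, and no label says whether the libraries of a dressing came from separate rats. The members were chosen with their values in this comparison known, so their differences between dressings are given as a description. Counts of members past a threshold stand beside the share of all genes past it, and nothing is read from them.

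Insulin binds its receptor, a tyrosine kinase, which phosphorylates the receptor substrates IRS1 and IRS2. These recruit phosphoinositide 3-kinase, whose lipid product activates the kinase AKT. AKT keeps the FOXO transcription factors out of the nucleus and, through the mTORC1 kinase complex, releases the cap-binding factor eIF4E from its repressors, the 4E-binding proteins. In the fasted liver FOXO1 drives gluconeogenic genes and also Irs2 and Insr, so that parts of the pathway are themselves under its control.

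The promoter of Insr is shown because FOXO factors are known to act on this gene, and that of Eif4ebp3 because its level differed most between the dressings. RefSeq promoter windows on the GRCr8 build matched 6 of the 9 members. Those of Irs2, Foxo3 and Eif4ebp1 were not used here. The 250 bases before the gene start are printed 5′ to 3′ on the gene's strand. Insr lies on the minus strand at chr12:6128804-6129053, with the FOXO motif TGTTTAC in capitals, and Eif4ebp3 on the plus strand at chr18:28540074-28540323, with the cAMP response element half-site TGACG in capitals.
Insr: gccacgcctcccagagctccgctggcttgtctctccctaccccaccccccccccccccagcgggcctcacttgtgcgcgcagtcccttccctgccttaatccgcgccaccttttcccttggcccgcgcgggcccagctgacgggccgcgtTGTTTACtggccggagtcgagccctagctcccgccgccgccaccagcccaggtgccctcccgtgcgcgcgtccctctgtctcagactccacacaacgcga
Eif4ebp3: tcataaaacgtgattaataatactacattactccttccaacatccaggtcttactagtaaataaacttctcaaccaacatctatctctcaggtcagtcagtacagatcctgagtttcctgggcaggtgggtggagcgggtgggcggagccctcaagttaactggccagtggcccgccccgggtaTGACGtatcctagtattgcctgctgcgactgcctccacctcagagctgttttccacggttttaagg
Both strands were searched for 5 motifs. TGTTTAC was found in Insr only, 100 to 94 bases before the start, and in 3.21% of all 33469 promoter windows of the same length. TGACG was found in Insr, 113 to 109 bases before the start, and in Eif4ebp3, 66 to 62 bases before it, and in 18.2% of all windows. The full response element TGACGTCA, which contains the half-site, the E-box CACGTG and the D-box TTATGNAA were in none of the 6 windows and in 1.59%, 5.59% and 3.28% of all windows. A match is a stretch of letters and not a measured binding site.

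Total counts ran from 40402312 to 41455378 per library, and scaling factors from the trimmed mean of M values (TMM) from 0.902 to 1.12. Levels between dressings are given as CPM, counts per 1e6 after this scaling, and levels between genes as the deposited FPKM, which are per transcript length and not TMM-scaled. All 8 hepatocyte markers examined had reads, at a summed 102000 to 151000 CPM after Quik-clot and at 117000 to 179000 CPM after AKOC. Orm1, an acute phase protein gene named here after its values were seen, was highest in Quik-clot replicate 3 and AKOC replicate 2, at 11300 and 8356 CPM, and stood at 790.3 to 1810 CPM in the other libraries. A2m stood at 2402 CPM in Quik-clot replicate 3 and at most at 91.5 CPM elsewhere. Across all genes edgeR's quasi-likelihood test with Benjamini-Hochberg adjustment called 0 genes in either direction (0%; lowest adjusted p = 0.182), and DESeq2 called 289 (2.09%). An unadjusted p under 0.05 was reached by 1732 genes (12.5%), of which 54.3% were higher after AKOC, or 37.6% of those reaching it when libraries were scaled by their totals only.

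No member was called between the dressings in edgeR with all libraries (0 of 9, beside 0% of all genes), nor by DESeq2 (0 of 9, beside 2.09%). In each of the 9 the values of the dressings overlapped, whereas in 18.4% of all genes tested they did not. The log2 fold changes, AKOC over Quik-clot, were negative for 7 members (52% of all genes) and positive for 2 (48% of all genes). Their median was -0.28 beside -0.015 over all genes. Irs2 varied widely within both dressings, with an SD of log2 CPM of 1.34 after Quik-clot (percentile 97.5 of all genes tested) and of 0.83 after AKOC (percentile 94.2). Eif4ebp3 varied widely within Quik-clot, with an SD of 1.53 (percentile 98.3), and less within AKOC, with 0.36 (percentile 75.1). Akt2 had 0.13 and 0.09 (percentiles 22.8 and 18.3).

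**Figure D1:**
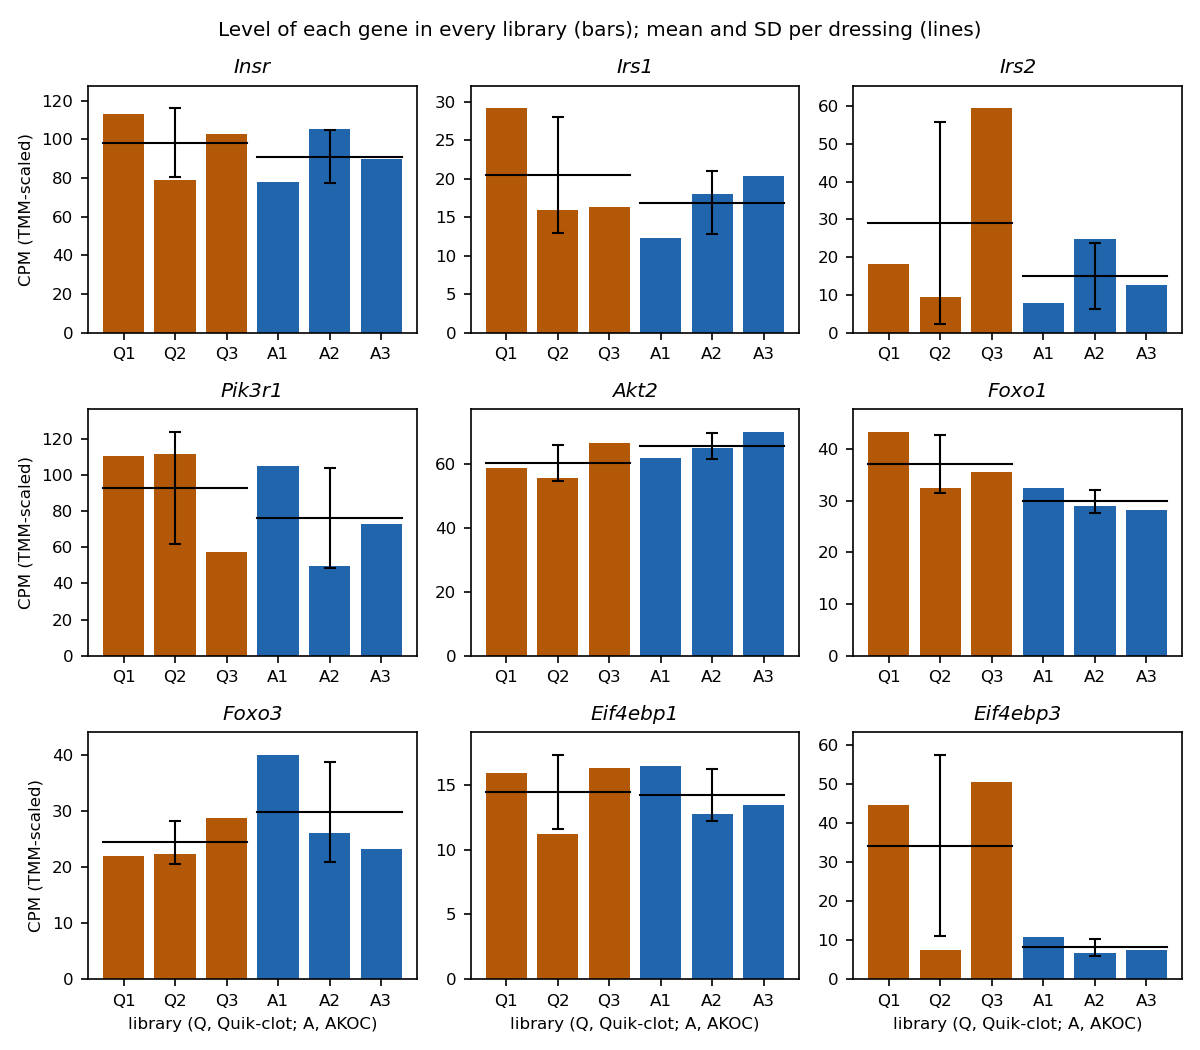
TMM-scaled CPM of the 9 genes (vertical axes, each from 0) in the 3 Quik-clot libraries (Q1 to Q3, orange bars) and the 3 AKOC libraries (A1 to A3, blue bars), with the mean and SD of each dressing as black lines. Irs2 is highest in Q3 at 59.5 CPM, and Eif4ebp3 is high in Q1 and Q3 but not in Q2.

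Levels per length placed the members in a clear order only in part. The mean FPKM over the 6 libraries was 28.7 for Eif4ebp3, 17.1 for Eif4ebp1, 16.3 for Akt2, 10.1 for Insr, 8.91 for Pik3r1, 3.90 for Foxo3, 3.53 for Irs1, 3.45 for Foxo1 and 3.36 for Irs2. Akt2, at 15.2 to 17.3 FPKM, lay above Insr, at 8.91 to 13.5 FPKM, without overlap. Eif4ebp1 (13.6 to 21.1 FPKM) and Akt2 overlapped, as did Insr and Pik3r1 (4.62 to 12.7 FPKM). Pik3r1 also overlapped with each of the lowest 4, Foxo3 (3.17 to 6.18 FPKM), Irs1, Foxo1 and Irs2. These 4 could not be ordered beyond their spread. The first place of Eif4ebp3 held in 2 libraries, Quik-clot replicates 1 and 3. In the other libraries it ranked 3 or 4 of the 9.

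**Figure D2:**
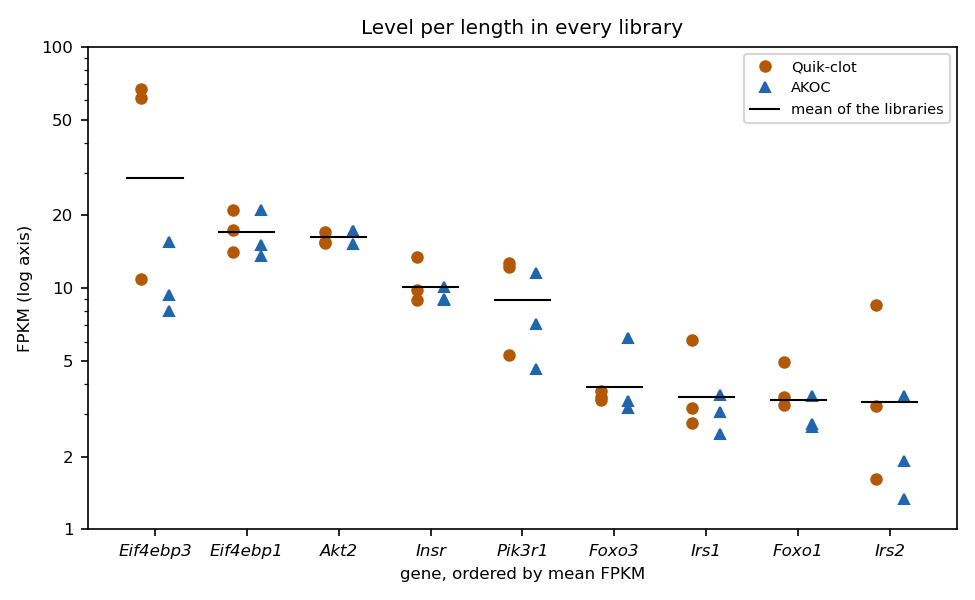
Deposited FPKM of each gene (log axis) in every library, Quik-clot as orange circles and AKOC as blue triangles, with the mean of the 6 libraries as a line, genes ordered by that mean. Akt2 is the tightest gene at 15.2 to 17.3 FPKM, while Eif4ebp3 runs from 8.04 to 67.2 FPKM.

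Insr, the receptor, stood at 113, 78.7 and 103 CPM after Quik-clot and at 77.8, 105 and 89.7 CPM after AKOC. Each dressing thus had high and low libraries, and the means of 98.2 ± 17.7 and 90.9 ± 13.7 CPM (Quik-clot first, SD, n = 3 each, as for all means here) lay within their spread. The log2 fold change was -0.11 ± 0.17 (SE), and 0.003 without Quik-clot replicate 1. The receptor of insulin-like growth factor 1, Igf1r, which shares the same substrates, was far lower in this liver, at a mean of 0.116 FPKM against 10.1 FPKM for Insr, and had a log2 fold change of 0.09 ± 0.24. In the RefSeq annotation of GRCr8, 2 long noncoding genes overlap the span of Insr. C1h19orf47 and the pseudogene LOC134483006 overlap that of Akt2. Whether these affected the counts was not tested, as the annotation and strand setting behind the counts are not given.

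The receptor substrates did not share a pattern. Irs1 stood at 29.2, 16.0 and 16.4 CPM after Quik-clot and at 12.4, 18.0 and 20.3 CPM after AKOC. A single library, Quik-clot replicate 1, lay above the rest, and the log2 fold change of -0.28 ± 0.28 became 0.06 without it. Irs2, the substrate whose transcription insulin represses in liver, stood at 18.2, 9.51 and 59.5 CPM after Quik-clot and at 7.81, 24.7 and 12.7 CPM after AKOC. Its highest library within each dressing was Quik-clot replicate 3 and AKOC replicate 2, the same pair that was highest in Orm1. The means were 29.1 ± 26.7 and 15.1 ± 8.71 CPM, and the log2 fold change of -0.95 ± 0.69 became 0.12 without Quik-clot replicate 3.

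Set against Irs1 in the same library, a ratio that does not depend on library scaling, Irs2 was in excess in 2 libraries. The FPKM ratio of Irs2 over Irs1 was 0.531, 0.506 and 3.08 after Quik-clot and 0.537, 1.17 and 0.531 after AKOC. In the other 4 libraries it thus stayed between 0.506 and 0.537, whichever the dressing. These ratios were formed after the values were seen, as were those below.

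Pik3r1, the main regulatory subunit of phosphoinositide 3-kinase, was low where Irs2 was high. It stood at 110.3, 111 and 57.3 CPM after Quik-clot and at 105, 49.9 and 73.0 CPM after AKOC, lowest in Quik-clot replicate 3 and AKOC replicate 2. Means were 93.0 ± 30.9 and 76.0 ± 27.7 CPM, and the log2 fold change of -0.29 ± 0.33 ran from -0.60 without AKOC replicate 1 to -0.07 without AKOC replicate 2. Its ratio to the catalytic subunit Pik3ca, in FPKM, was 2.0, 2.31 and 1.26 after Quik-clot and 2.45, 1.09 and 1.53 after AKOC, so that the subunits did not move in step. The gene whose centred log2 CPM came closest to that of Pik3r1 over the 6 libraries, among 11338 genes compared, was Cebpa, a transcription factor of the differentiated hepatocyte. Cebpa stood at 158, 154 and 95.0 CPM after Quik-clot and at 142, 80.2 and 107 CPM after AKOC, with a root mean square difference from Pik3r1 of 0.107 where Pik3r1 itself deviated by 0.467.

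Akt2, the AKT kinase that serves insulin in liver, was the steadiest member. It stood at 58.9, 55.8 and 66.5 CPM after Quik-clot and at 61.9, 65.0 and 70.2 CPM after AKOC. The highest library was thus 1.26 times the lowest, and the log2 fold change was 0.12 ± 0.11. Its paralog Akt1 was expressed at a like level per length, with Akt2 over Akt1 ratios in FPKM from 0.956 to 1.30, and had a log2 fold change of -0.05 ± 0.10.

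The FOXO genes had log2 fold changes of opposite sign. Foxo1 stood at 43.3, 32.4 and 35.5 CPM after Quik-clot and at 32.5, 28.9 and 28.2 CPM after AKOC. The dressings met at Quik-clot replicate 2 and AKOC replicate 1, and the means were 37.1 ± 5.62 and 29.9 ± 2.27 CPM, a log2 fold change of -0.31 ± 0.14. Foxo3 stood at 21.99, 22.3 and 28.8 CPM after Quik-clot and at 40.02, 26.1 and 23.3 CPM after AKOC. A single library, AKOC replicate 1, carried its log2 fold change of 0.29 ± 0.22, which was 0.02 without that library. The FPKM ratio of Foxo1 over Foxo3 was 1.4, 1.03 and 0.874 after Quik-clot and 0.576, 0.787 and 0.861 after AKOC. All AKOC ratios lay below all Quik-clot ratios, though 0.861 and 0.874 were nearly the same. Foxo4, another member of the family, had a log2 fold change of -0.27 ± 0.24, and 0.02 without Quik-clot replicate 1.

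The gene closest to Foxo1 among the 11338 compared was the endothelial gene Kdr, a receptor of vascular endothelial growth factor. The root mean square difference was 0.029 in log2 CPM, where Foxo1 itself deviated by 0.205. Maf and Haus7 came next, at 0.039 and 0.043. Whether so small a difference arises from picking the closest of 11338 genes over 6 libraries was not tested. Kdr stood at 144, 112 and 120.1 CPM after Quik-clot and at 114, 98.3 and 99.1 CPM after AKOC. The 6 endothelial markers, Kdr among them, summed to 394 to 446 CPM after Quik-clot and to 343 to 382 CPM after AKOC, without overlap. Values of the dressings did not overlap in 18.4% of all genes tested either. Of the 6, 5 had a negative log2 fold change (52% of all genes did), and none was called or at 0 in every library. Clec4g, at -0.02 ± 0.38, was near 0, and Cdh5, at 0.03 ± 0.13, was positive. Pecam1 and Lyve1 were lower at an unadjusted p under 0.05 (5.7% of all genes were). This was not particular to endothelial markers. All 8 Kupffer cell or macrophage markers and all 5 T or NK cell markers tested were also negative, 2 and 3 of them at that p. Hepatocyte markers had 4 of each sign, and the 3 red cell markers were positive. Fewer cells of a type and less RNA per cell cannot be told apart in whole tissue, and the part of endothelial cells in the Foxo1 values was not tested.

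Eif4ebp3 encodes a repressor of cap-dependent translation and had the widest difference between dressings. It had 2050, 330 and 1874 counts after Quik-clot and 477, 248 and 282 counts after AKOC, or 44.6, 7.56 and 50.6 CPM against 10.7, 6.62 and 7.35 CPM. Quik-clot replicates 1 and 3 thus stood apart from the other 4 libraries, while Quik-clot replicate 2 lay among the AKOC libraries. The means were 34.3 ± 23.3 and 8.22 ± 2.18 CPM, and the log2 fold change of -2.06 ± 0.62 remained negative under all 15 alternatives run. Each alternative kept Quik-clot replicate 1 or 3, so the constant sign is no test of the difference. With Quik-clot replicate 2 left out the log2 fold change was -2.53 ± 0.22, and edgeR then called 18 of 14146 genes (0.127%), Eif4ebp3 among them. Since the library left out is the one that overlapped with AKOC and the gene was chosen with its values known, that call is no test of it. Quik-clot replicate 2 also had the highest sums of 2 of the 4 lists of immune cell markers. B cell markers were highest in Quik-clot replicate 1 (5.22 CPM, against 3.6 CPM in replicate 2). Neutrophil markers were highest in Quik-clot replicate 3 (103 CPM, against 17.6 CPM in replicate 2). The 6 T or NK cell markers summed to 32.3 CPM there and to 7.66 to 11.9 CPM in the other libraries, and all but Cd3d were highest in that library. The 8 markers of Kupffer cells or macrophages summed to 1250 CPM there and to 662 to 1010 CPM in the others. The part of these cells in the Eif4ebp3 values was not tested.

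Of the related repressors, Eif4ebp1 did not show this pattern, and Eif4ebp2 showed it at a smaller size. Eif4ebp1 stood at 15.9, 11.2 and 16.3 CPM after Quik-clot and at 16.5, 12.7 and 13.4 CPM after AKOC, with a log2 fold change of -0.02 ± 0.18. Eif4ebp2, which is not a member, stood at 236.6, 152 and 179 CPM after Quik-clot and at 134, 157 and 142 CPM after AKOC, with a log2 fold change of -0.39 ± 0.17 (edgeR adjusted p = 0.411). Quik-clot replicates 1 and 3 were its highest libraries, and Quik-clot replicate 2 lay within the AKOC range. The FPKM ratio of Eif4ebp3 over Eif4ebp1 was 3.18, 0.769 and 3.53 after Quik-clot and 0.738, 0.591 and 0.621 after AKOC. It exceeded 1 in Quik-clot replicates 1 and 3 only. The closest genes to Eif4ebp3 over the 6 libraries were Gpr158, Fmo2 and Ablim3, at root mean square differences of 0.272, 0.378 and 0.449 where Eif4ebp3 itself deviated by 1.23. Fmo2, a flavin-containing monooxygenase, stood at 4.79, 0.802 and 4.46 CPM after Quik-clot and at 0.651 to 0.961 CPM after AKOC.

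**Figure D3:**
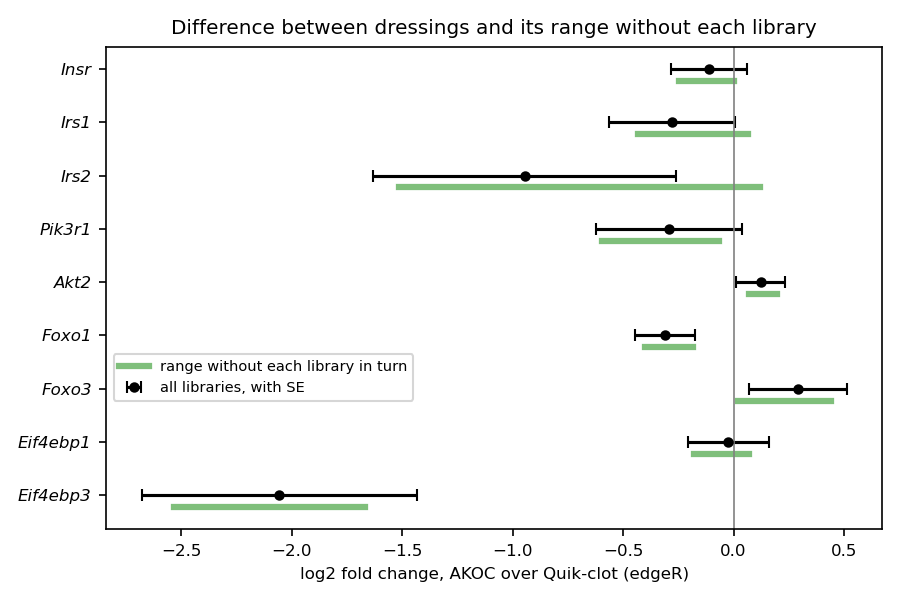
Log2 fold change of each gene, AKOC over Quik-clot (horizontal axis), as black points with the standard error, and as green bars the range of the same value when each library is left out in turn. The range of Insr, Irs1, Irs2 and Eif4ebp1 includes 0, and that of Eif4ebp3 runs from -2.53 to -1.67.

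Some genes under the control of insulin and FOXO1 were high in the same libraries as Irs2. Igfbp1, whose product binds insulin-like growth factors and whose transcription insulin shuts off, stood at 46.0, 23.6 and 629.8 CPM after Quik-clot and at 42.5, 167 and 52.1 CPM after AKOC. G6pc1, the glucose-6-phosphatase that ends gluconeogenesis, stood at 130.2, 170.5 and 589.7 CPM after Quik-clot and at 209, 492 and 377 CPM after AKOC. Pck1, the gluconeogenic carboxykinase, stood at 1506, 1614 and 2872 CPM after Quik-clot and at 1882, 2587 and 1362 CPM after AKOC. In all 3, as in Irs2, the highest library of each dressing was Quik-clot replicate 3 and AKOC replicate 2. This held for 8 of the 23 listed FOXO targets and insulin-repressed genes, or 34.8% beside 11.2% of all genes tested, a tally made after the values were seen. The other 15, among them Cat, Ccng2, Bcl6 and Insig2, had another pair of highest libraries. The tally depends on scaling, as Quik-clot replicate 3 and AKOC replicate 2 had the lowest TMM factors, 0.902 and 0.904. On the deposited FPKM, which are not TMM-scaled, Klf15, Txnip and Sod2 of the 8 did not have this pair highest. The share of all genes with this pair highest in FPKM was not counted. None of Igfbp1, G6pc1 and Pck1 was called between dressings by edgeR, with log2 fold changes of -1.42 ± 1.18, 0.28 ± 0.58 and -0.04 ± 0.36 in that order. That of Igfbp1 turned to 1.32 without Quik-clot replicate 3.

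**Figure D4:**
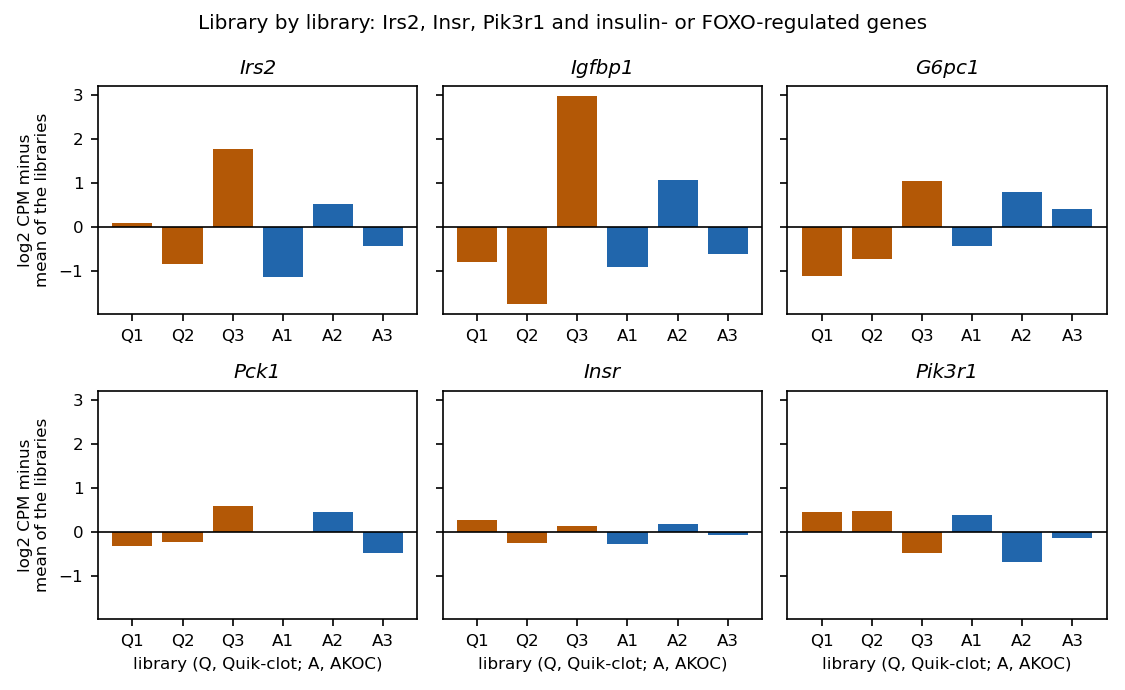
Log2 CPM of 6 genes minus their mean over the libraries (vertical axes, shared), in the Quik-clot (Q1 to Q3, orange) and AKOC (A1 to A3, blue) libraries. Irs2, Igfbp1, G6pc1 and Pck1 are above their mean in Q3 and A2, while Pik3r1 is below it there and Insr lies within -0.27 and 0.28 in every library.

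The closest gene to Irs2 over the 6 libraries was Il1rn, the interleukin 1 receptor antagonist, at a root mean square difference of 0.398 where Irs2 itself deviated by 0.972. Il1rn stood at 141.7 CPM in Quik-clot replicate 3 and 47.8 CPM in AKOC replicate 2, against 25.4 to 31.6 CPM in the other libraries. The neutrophil markers, all 4 of them with reads, summed to 103 CPM in Quik-clot replicate 3 and 29.3 CPM in AKOC replicate 2, but to 44.7 CPM in AKOC replicate 1, where Irs2 was lowest. The part of the acute phase state in the Irs2 values was not tested. For Insr the closest gene was Mast2 (0.051), for Irs1 Mast4 (0.066), for Akt2 Slc39a3 (0.030), for Foxo3 Map10 (0.060) and for Eif4ebp1 Crls1 (0.044), each given with its root mean square difference in log2 CPM over 6 libraries.

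A wider list of 117 pathway genes that are not members was set by role, and 115 were in the table and 112 tested. With edgeR 0 were called in either direction (beside 0% of all genes). At an unadjusted p under 0.05, 13 lay higher after AKOC (6.78% of all genes did) and 7 lower (5.7% of all genes), together 17.9% of the list beside 12.5% of all genes. DESeq2 called 6 of them, or 5.41% beside 2.09% of all genes: Irs3, Socs2, Insig2, Ccng2 and Srebf1 higher and Foxk2 lower. In each of the 6 the DESeq2 value was the lowest adjusted p over the 15 alternatives, and the highest lay between 0.589 and 0.649. The median log2 fold change was -0.07, with 46 positive (48% of all genes were) and 66 negative (52% of all genes).

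Among the 9 substrates and adaptors tested, Irs3 had the widest difference. At an unadjusted p under 0.05, 2 of the 9 were higher (6.78% of all genes were) and 1 lower (5.7% of all genes). Irs3 encodes a further receptor substrate of rodents, known mainly from fat cells. It stood at 4.09, 2.25 and 0.648 CPM after Quik-clot and at 8.03, 6.72 and 21.3 CPM after AKOC, higher in each AKOC library than in any Quik-clot library. The log2 fold change was 2.36 ± 0.69 (edgeR adjusted p = 0.312; DESeq2 adjusted p = 0.0114) and ran from 1.66 to 3.04 when each library was left out in turn. Per length Irs3 exceeded Irs1 in all AKOC libraries, at FPKM ratios of 1.77, 1.01 and 2.84, and in no Quik-clot library, at 0.381, 0.382 and 0.108. Of the 4 adipocyte markers listed, 2 were in the table. Adipoq, the defining one, had 0 counts in 4 libraries and 1 count each in AKOC replicates 2 and 3. Cidec, a lipid droplet gene that liver cells also express, stood at 45.6 to 54.3 CPM after Quik-clot and at 37.6 to 45.8 CPM after AKOC. The adaptor genes Grb2 and Crk had 0.27 ± 0.10 and -0.27 ± 0.10.

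Kinase and lipid kinase genes differed little. Of 7 phosphoinositide 3-kinase subunits, 1 was lower at an unadjusted p under 0.05 (5.7% of all genes were), Pik3c2a at -0.33 ± 0.11. Pik3ca had -0.12 ± 0.11. Of 10 kinases downstream of the lipid product, 1 was higher (6.78% of all genes were), the atypical protein kinase C gene Prkci at 0.28 ± 0.11. Pdpk1, which phosphorylates AKT, had -0.10 ± 0.10 and Mtor 0.15 ± 0.14. Neither of 2 genes of glycogen synthase kinase reached that p. Of 22 inhibitors and phosphatases tested, 15 were negative (52% of all genes were) and 1 reached that p (12.5% of all genes did). This was Socs2, a growth hormone-induced suppressor of cytokine signalling, at 1.41 ± 0.43 (edgeR adjusted p = 0.322, DESeq2 adjusted p = 0.0486). The receptor-binding inhibitor Grb14 had 0.24 ± 0.11, and Trib3, a pseudokinase that binds AKT, -0.19 ± 0.72.

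In the mTORC1 and translation group, 3 of 18 genes were higher (6.78% of all genes were) and 1 lower (5.7% of all genes) at an unadjusted p under 0.05. Eif4b, an initiation factor that aids unwinding of the messenger, stood at 233.5, 141 and 219 CPM after Quik-clot and at 124, 121 and 123 CPM after AKOC, a log2 fold change of -0.69 ± 0.19 (edgeR adjusted p = 0.306). Like Eif4ebp3 and Eif4ebp2 it was highest in Quik-clot replicates 1 and 3. The same libraries were highest in genes of other roles on the list, among them Pink1, Bnip3, Sirt1 and Ppargc1a. The share of all genes with this pattern was not counted. Pdcd4, an inhibitor of translation initiation, had 0.57 ± 0.21, the autophagy kinase gene Ulk1 0.57 ± 0.21, and Eif4e, the cap-binding target of the 4E-binding proteins, -0.14 ± 0.14.

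FOXO cofactors and targets lay on both sides. Of 10 FOXO family genes and cofactors tested, 9 were negative (52% of all genes were). Among the 9, Ywhaz, Crtc2, Usp7, Mdm2 and Foxk1 lay within their SE of 0. Of the 9, 1 was lower at an unadjusted p under 0.05 (5.7% of all genes were). This was Foxk2, a forkhead factor that insulin signalling sends into the nucleus, at 19.8, 16.8 and 22.2 CPM after Quik-clot and at 11.7, 12.7 and 13.3 CPM after AKOC, a log2 fold change of -0.65 ± 0.14 (edgeR adjusted p = 0.281; DESeq2 adjusted p = 0.0198). Of 23 FOXO targets and insulin-repressed genes, 2 were higher (6.78% of all genes were) and 3 lower (5.7% of all genes) at that p. Insig2, which retains the lipogenic factor SREBP in the endoplasmic reticulum, had 0.88 ± 0.16 (edgeR adjusted p = 0.244; DESeq2 adjusted p = 0.000738). Ccng2, a cyclin gene that FOXO factors induce, had 1.005 ± 0.25 and Txnip, a thioredoxin-binding protein gene, -0.37 ± 0.14.

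Insulin-induced genes, 8 in all, each had a positive log2 fold change (median 0.74), and 4 reached an unadjusted p under 0.05. Srebf1, the transcription factor through which insulin raises lipogenesis, had 1.05 ± 0.32, Acaca 0.59 ± 0.18 and Pnpla3 3.32 ± 0.89, the last at 1.56 without AKOC replicate 3. Genes of the circadian clock also differed between the dressings. Of 18 listed, 3 were higher (6.78% of all genes were) and 11 lower (5.7% of all genes) at an unadjusted p under 0.05. Bmal1 had 1.96 ± 0.26 and Dbp -2.20 ± 0.37. With edgeR 0 of the 18 were called, and DESeq2 called 6 (33.3% beside 2.09% of all genes). The part of collection time in the values above was not tested.

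**Figure D5:**
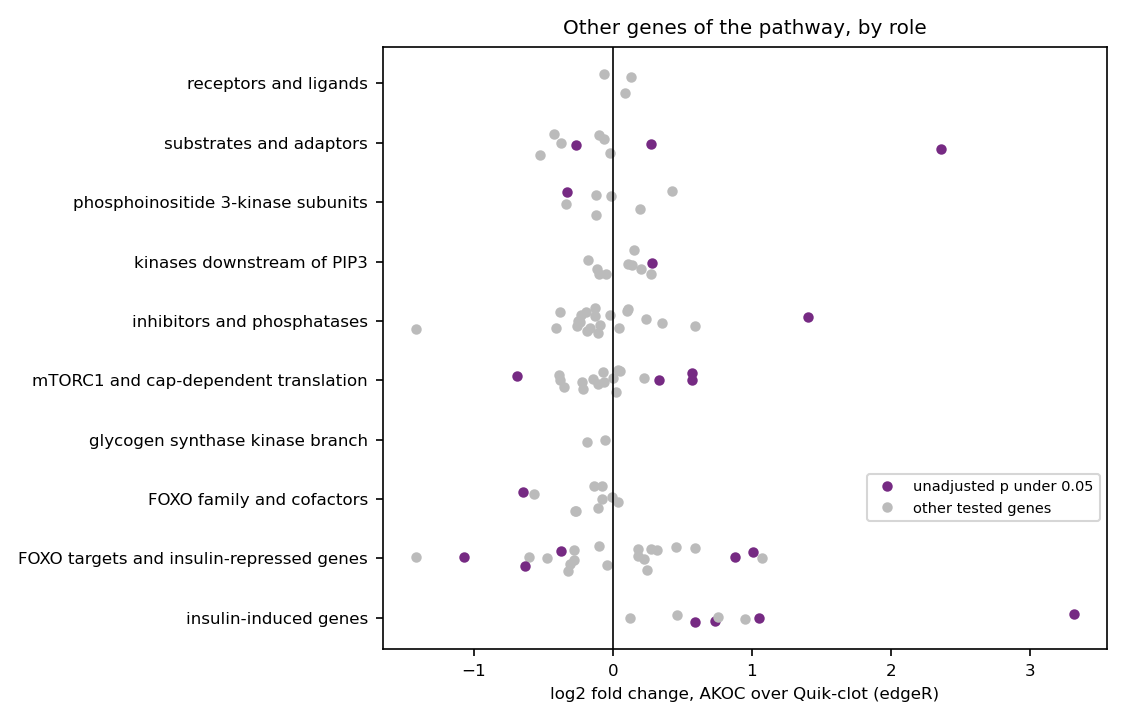
Log2 fold change, AKOC over Quik-clot (horizontal axis), of the 112 tested genes of the wider list, 1 point per gene, grouped by role, with purple points at an unadjusted p under 0.05. Insulin-induced genes all lie right of 0, while the other groups lie on both sides, except the 2 glycogen synthase kinase genes, which lie left of it.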

How the data were processed

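The authors deposited 1 table of raw read counts and 1 of FPKM, with the same genes and libraries in each. The submitters' processing notes name fastp, HISAT2, HTSeq and the build mRatBN7.2, while versions, annotation and strand setting are not given in the sources consulted. The deposited FPKM equal the count over length and library total, to within a relative error of 6.2e-07, and so hold the same measurement as the counts.

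Genes were filtered with filterByExpr (minimum count 10, minimum total 15), scaled by TMM and tested by dressing alone in R 4.3.3 with edgeR 4.0.16 (quasi-likelihood, two-sided). P-values were adjusted over all genes by Benjamini-Hochberg and called under 0.05. The SE is the log2 fold change over the square root of F. Alternatives used DESeq2 1.42.0 and limma 3.58.1, other scalings, filters and pseudocounts, the replicate number as a term, and each library left out. Since no label names separate animals, p-values reflect only how these samples vary, and that variation may be technical.

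The members, lists and tests were chosen with earlier results of these data known. Of the wider list, a fixed panel was named (2 of its genes are not reported here), with up to 3 genes per role of smallest unadjusted p under 0.05. Genes of closest pattern have the smallest root mean square difference of centred log2 CPM (prior count 2), among genes with a mean of at least 1 CPM and an established symbol. Promoters come from RefSeq, build GRCr8.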

Additional observations from a re-analysis of the deposited data

How the results depend on the processing

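With 3 libraries per dressing, 1 library could decide a value. The log2 fold changes of Pik3r1, Akt2, Foxo1, Foxo3 and Eif4ebp3 kept their sign under all 15 alternatives. For Eif4ebp3 each alternative kept Quik-clot replicate 1 or 3, the libraries that stood apart. Insr became 0.003, Irs1 0.063 and Eif4ebp1 0.051 without Quik-clot replicate 1. Irs2 became 0.118 and Eif4ebp1 0.068 without Quik-clot replicate 3, and Eif4ebp1 also turned positive when AKOC replicate 2 (0.043) or AKOC replicate 3 (0.015) was left out. The lowest values with a library left out were -0.249 for Insr, -0.431 for Irs1 and -0.180 for Eif4ebp1, all without Quik-clot replicate 2, and -1.514 for Irs2 without AKOC replicate 2. Genes called over all genes numbered 289 with DESeq2, 0 to 18 when each library was left out and 1 with the replicate block. Those of the wider list numbered 6 with DESeq2 and 0 when any library was left out. Genes at an unadjusted p under 0.05 numbered 1126 and 1149 on log2 FPKM with pseudocounts of 1 and 0.1, and 1080 to 2461 when each library was left out. In the wider list they numbered 13 with the replicate block and 12 to 29 when each library was left out. Genes whose dressings did not overlap numbered 3626 to 5067 with a library left out, where fewer samples must be separated, and 2 of the 9 members were among them when Quik-clot replicate 2 (35.8% of all genes) or AKOC replicate 1 (31%) was dropped, and 3 when Quik-clot replicate 3 was (27.4%), which shows nothing particular to the members. The cause of these differences was otherwise not tested. The replicate numbers did not pair the libraries: deviations of same-numbered libraries correlated at -0.072, -0.082 and -0.201.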
